A study of Mus musculus with 10 samples.

Results

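The 42 genes described here encode proteins that mature nerve cells use for their cytoskeleton, their secretory granules and their synapses: 4 neurofilament proteins, 6 granins and granin-like secretory proteins, 3 neuronal calcium sensors, 7 proteins of synaptic vesicles and exocytosis, 8 proteins of microtubules, growth cones and ubiquitin handling, 6 neuronal RNA-binding proteins and 8 synaptic adhesion molecules, channels, receptors and kinases. They were chosen as a named list with earlier results of these data known. Shares of members set beside shares of all genes are therefore descriptions and not tests. The list was matched by gene identifier to a table of 53801 genes, in which 40 of the 42 carried their symbol. Scg2 and Nlgn1 were matched by identifier only. The levels were measured in mouse embryonic fibroblasts (MEFs), a culture of mesenchymal cells, and not in neurons.

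Neurofilaments are the intermediate filaments that fill axons. Granins are acidic proteins that pack peptides into dense-core granules, and SNARE proteins, synaptotagmins and synapsins bring vesicles to the membrane and fuse them. Outside the nervous system many genes of this kind are held down by the repressor REST, which binds a sequence called RE1 and brings histone deacetylases to it. MiDAC is another complex of class I histone deacetylases, built from MIDEAS, DNTTIP1 and HDAC1 or HDAC2.

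RNA-seq had been made from C57BL/6 MEFs of embryonic day 13.5, prepared from the body after the heads, liver and heart were taken off. MIDEAS-/- lines carried a 10 bp deletion in exon 2 of the gene and DNTTIP1-/- lines an 11 bp deletion in exon 2, both made by CRISPR-Cas9 in zygotes (C57BL/6J in the methods) and both homozygous from crosses of heterozygotes. There were 3 MIDEAS-/- and 3 MIDEAS+/+ libraries, and 2 DNTTIP1-/- and 2 DNTTIP1+/+ libraries, so that each knockout was compared with the wild type of its own family to ask how expression depends on that subunit. The lines were described as independent; the litter and embryo of each are not stated by the labels or methods, so line and litter cannot be told apart. Values are normalized counts, that is reads divided by a size factor of the library, and each library held between 12339970 and 19761295 reads.

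Dnttip1 itself was at 197 and 173 in the DNTTIP1-/- libraries against 434 and 443 in DNTTIP1+/+. The transcript of Mideas (Elmsan1 in the table) was between 1038 and 1728 in MIDEAS-/- and between 1272 and 1576 in MIDEAS+/+; a 10 bp deletion leaves a transcript that can still be counted, so this gene does not check the labels. As a check on cell identity, the 12 fibroblast markers summed to 58014 to 74592 in every library. Single markers moved: 2 of the 12 were called higher in MIDEAS-/-, beside 3.36% of all genes, and none lower. The log2 fold changes of the 12 ran from -1.08 to 2.52 in MIDEAS-/-, and none was called in DNTTIP1-/-. Of 16 transcription factors of neuronal lineages, Neurog1, Neurod4 and Pou4f2 were at 0 in all 10 libraries, 13 had a mean under 10, and only Hand2, Isl1 and Prox1, which are not limited to neurons, were tested, with none called in either knockout. The sum over the 16 lay between 189 and 399 for MIDEAS+/+ and between 309 and 339.7 for MIDEAS-/-. It was 430.2 and 328 for DNTTIP1+/+ and 434 and 435 for DNTTIP1-/-. The autonomic neuron enzymes Th and Dbh did not exceed 4.09 in any library. Of their list of 12 autonomic and sensory neuron markers, 2 of 5 tested were called higher in MIDEAS-/-, beside 3.36% of all genes. That list summed to between 329 and 430.3 for MIDEAS+/+ and between 676 and 1187 for MIDEAS-/-. It summed to between 265 and 421 for DNTTIP1+/+ and between 856 and 1169 for DNTTIP1-/-. In bulk samples, fewer cells of a type and less RNA per cell cannot be told apart.

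Most members were expressed at low levels in wild-type MEFs, and a few at high ones. By the mean over the 5 wild-type libraries, 3 members were under 1 normalized count (Nefh, Hpca and Rbfox3), 15 between 1 and 10, 11 between 10 and 100, 12 between 100 and 1000, and Gria3 alone was above 1000. These are 7.14%, 35.7%, 26.2%, 28.6% and 2.38% of the members, where the same classes hold 57.7%, 12.3%, 7.94%, 14.0% and 8.03% of all genes in the table. The 2 wild-type families put 28 members in the same class and 14 in different ones. To compare genes, levels were divided by merged exon length: per kb, Tubb3 was at 496 and stood at the percentile 89.2 of the 16227 genes tested, Uchl1 at 432 and 86.8, Gap43 at 266 and 75.6, Gria3 at 188 and 65.8 and Stx1a at 169.5 and 62.9. These 5 were the only tested members above the median of tested genes. The neurofilament genes lay far below, with Nefm at 9.76 per kb and the percentile 11.8, and Nefl at 2.61 per kb and the percentile 2.52.

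**Figure D1:**
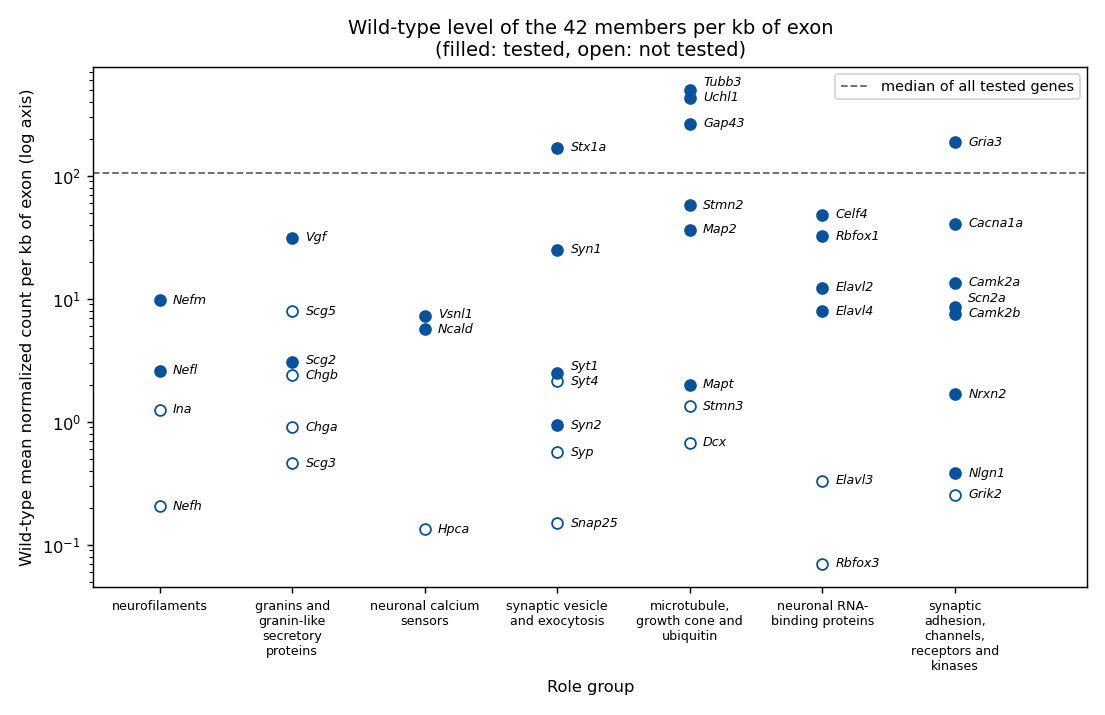
Mean normalized count per kb of exon over the 5 wild-type libraries (log axis) for each of the 42 members, by role group; filled points were tested and open points were not, and the dashed line is the median of all 16227 tested genes. Tubb3, Uchl1, Gap43, Gria3 and Stx1a lie above the line.

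Genes with a mean of at least 10 over all libraries were tested, which kept 27 of the 42 members; all 42 are drawn in the heatmap of levels by library. The 15 others were Nefh, Ina, Scg3, Scg5, Chga, Chgb, Hpca, Syt4, Snap25, Syp, Stmn3, Dcx, Elavl3, Rbfox3 and Grik2. Of the 27, Nefl, Scg2, Syn2 and Nlgn1 had a wild-type mean under 10 and passed only through the knockout libraries, so their passing already used the difference. Scg5 had a wild-type mean of 12.5 but a mean of 9.22 over all libraries and was left out.

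**Figure D2:**
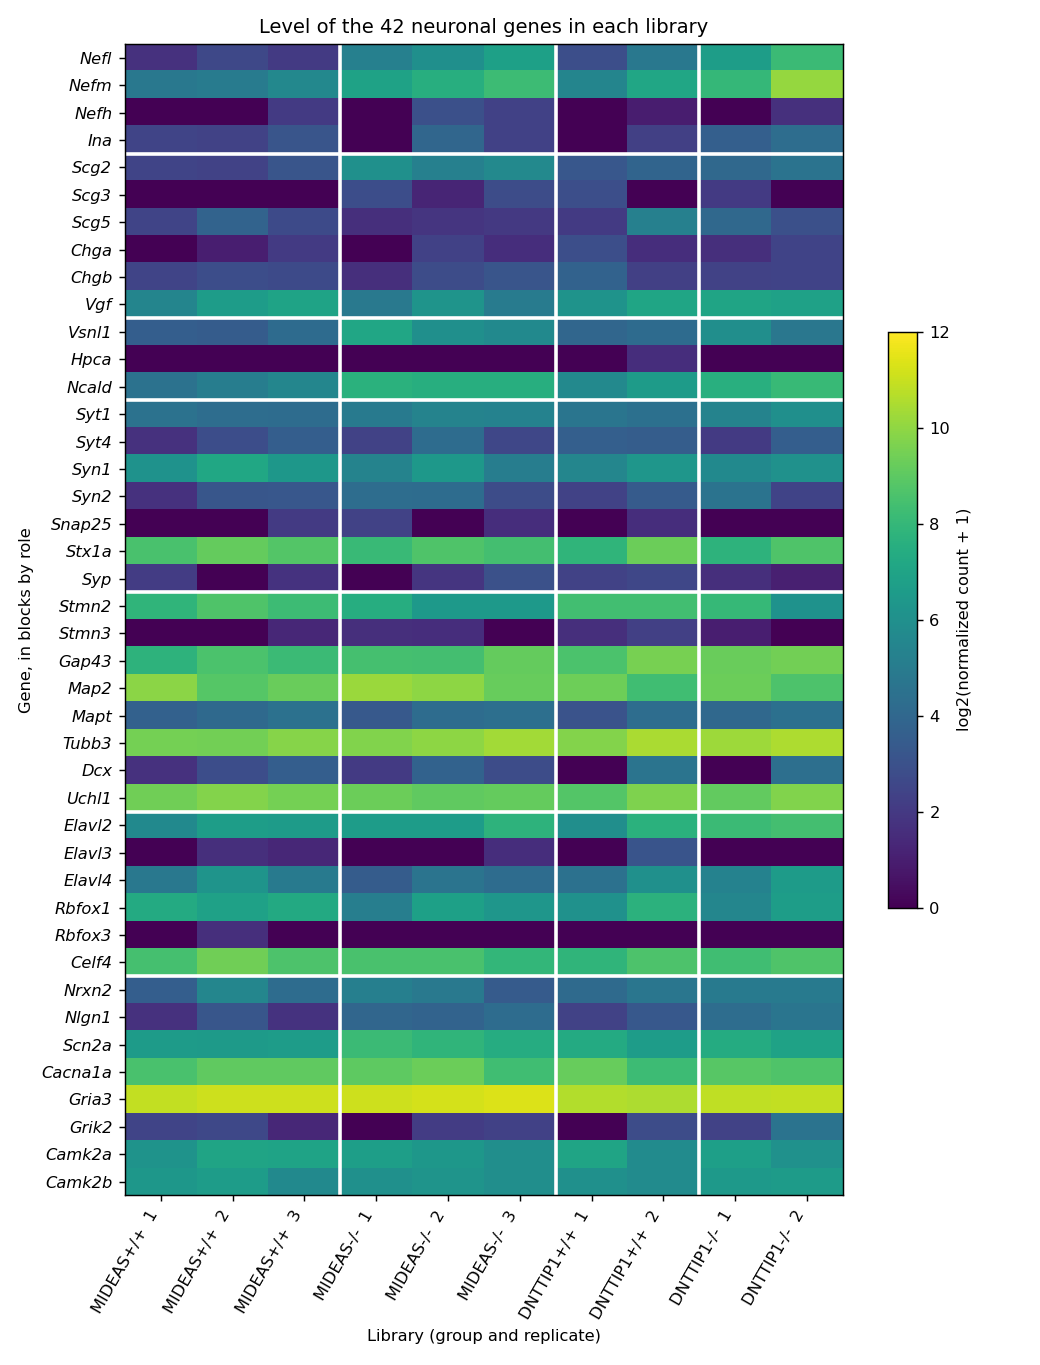
Level of each of the 42 members, as log2(normalized count + 1), in each of the 10 libraries; rows are in blocks by role and columns in blocks by group. Nefl, Nefm, Scg2, Vsnl1 and Ncald are brighter in the MIDEAS-/- columns than in the MIDEAS+/+ columns, and Gria3 is bright in all 10.

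In MIDEAS-/- MEFs, 6 of the 27 tested members rose and none fell (limma, adjusted p under 0.1). They were Nefl, Nefm, Scg2, Vsnl1, Ncald and Scn2a, with log2 fold changes from 1.25 to 3.88. Over all genes tested 5.65% were called, 3.36% higher and 2.29% lower. Among the 23 tested members with a wild-type mean of 10 and more, 4 rose, and of all such genes 3.16% did. The median log2 fold change of the 27 was 0.21, beside -0.02 over all genes tested. Of the 27 values 16 were above 0, beside 46.4% of all genes tested. Nefl, Scg2, Syn2 and Nlgn1, which passed the filter only through the knockouts, are among the 16, so this count and the median are not a test.

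In DNTTIP1-/- MEFs, 0 of the 27 members passed the test, and 0.0308% of all genes did. The same count was 0 by edgeR and 3 by DESeq2 (Nefl, Nefm and Ncald, where 1.32% of all genes were called). An unadjusted limma p under 0.05 was found for 8 members, beside 6.46% of all genes. The 3 include Nefl, and the 8 include Nefl and Nlgn1, which passed the filter only through the knockout libraries, so these counts are not a test. The median log2 fold change was 0.31, beside 0.00 over all genes tested. Of the 27 values 23 were above 0, beside 50.1% of all genes tested, and the 23 again include Nefl, Scg2, Syn2 and Nlgn1. The 2 knockout effects were also compared with each other: 0 members and 0% of all genes were called by limma, and 0 members by edgeR and by DESeq2. In this comparison 2 members (Scg2 and Scn2a) had an unadjusted limma p under 0.05, beside 2.79% of all genes. Scg2 had passed the filter only through the knockout libraries. The comparison of the 2 wild-type groups called 0 members and 0% of all genes by limma, 0 members by edgeR and 1 by DESeq2 (Gria3, lower in DNTTIP1+/+, where 2.04% of all genes were called), with 5 members at an unadjusted p under 0.05 by limma, beside 10.7% of all genes.

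A plainer description is whether the libraries overlap. All MIDEAS-/- libraries lay above all MIDEAS+/+ libraries for 8 members, where 11.5% of all tested genes did so, and all DNTTIP1-/- libraries lay above DNTTIP1+/+ for 11, where 20.1% did so. Nefl, Nefm, Scg2, Vsnl1, Ncald, Syt1 and Nlgn1, 7 members, were above their own wild types in both families, beside 5.09% of all genes. Of these 7, Nefl, Scg2 and Nlgn1 had passed the filter only through the knockouts; among the 23 members with a wild-type mean of 10 and more there were 4 (Nefm, Vsnl1, Ncald and Syt1), beside 4.79% of such genes. In the other direction, 4 members (Stmn2, Uchl1, Elavl4 and Rbfox1) lay below MIDEAS+/+ in all MIDEAS-/- libraries, beside 11% of all genes, and 1 (Stmn2) lay below in DNTTIP1-/-, beside 18.9%. Stmn2 was thus below in both, beside 3.69%.

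**Figure D3:**
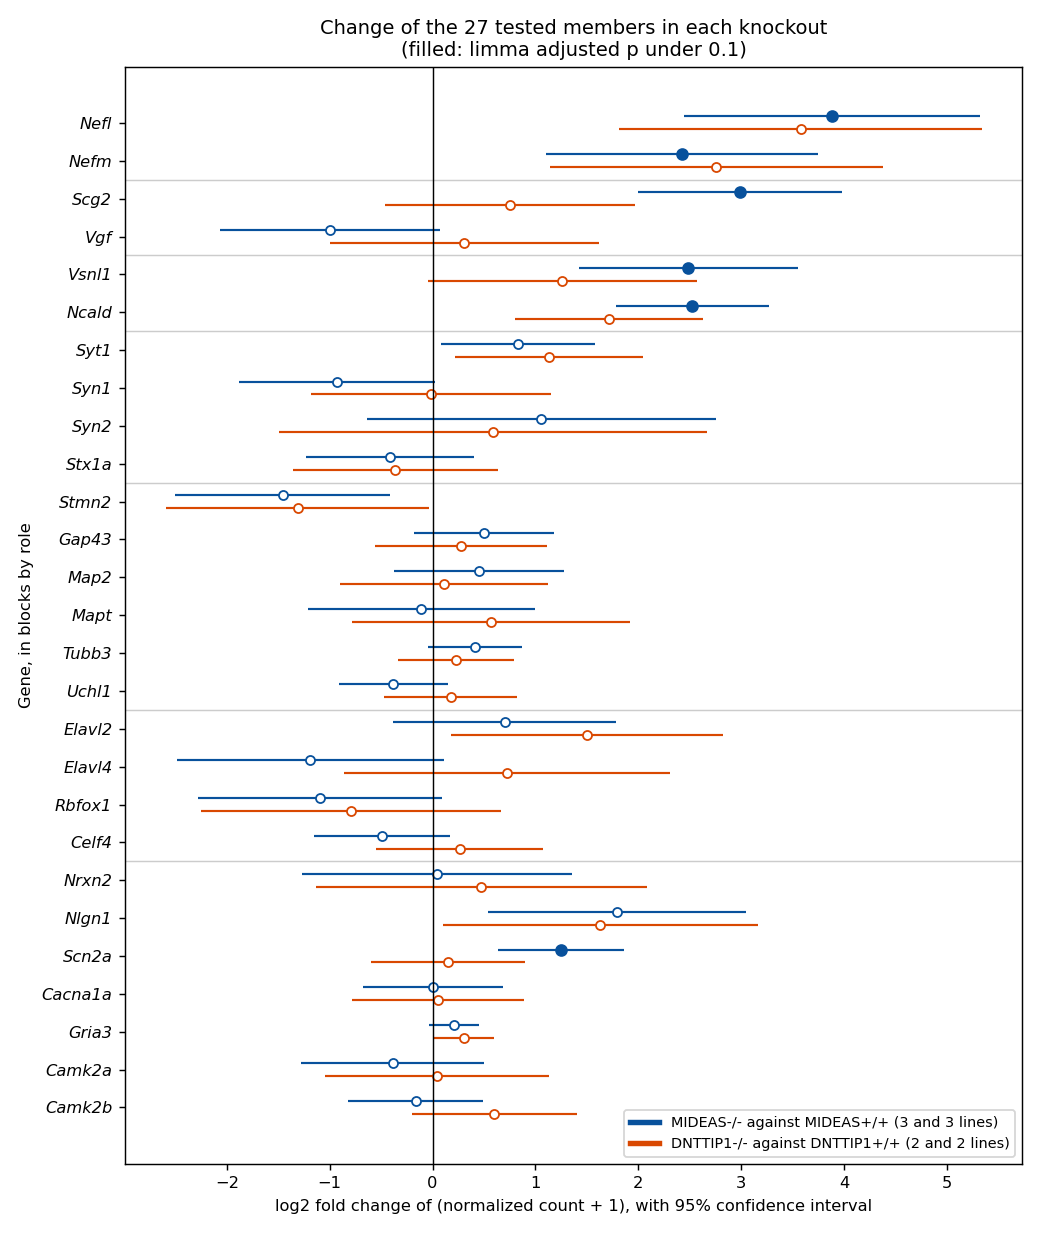
log2 fold change of each of the 27 tested members with its 95% confidence interval, MIDEAS-/- in blue and DNTTIP1-/- in orange, in blocks by role; filled points passed the test. The 6 filled points are Nefl, Nefm, Scg2, Vsnl1, Ncald and Scn2a in MIDEAS-/-, and no DNTTIP1-/- point is filled.

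The neurofilament light chain gene Nefl, the subunit on which the other chains assemble, had the largest change of the list. Nefl (chr14:68083863-68089095, plus strand, mm10) was at 2.23, 5.11 and 3.13 in MIDEAS+/+ and at 36.1, 61.2 and 112 in MIDEAS-/-. It was at 6.33 and 27.3 in DNTTIP1+/+ and at 99.9 and 292 in DNTTIP1-/-. Every knockout library was above every wild-type library of both families. The log2 fold change was 3.88 ± 0.65 (SE) in MIDEAS-/- (limma adjusted p = 0.018) and 3.58 ± 0.79 in DNTTIP1-/- (limma adjusted p = 0.27), and the difference between them was -0.30 with a 95% confidence interval from -2.58 to 1.97. Against all 5 wild-type libraries the log2 fold change was 4.62 in DNTTIP1-/-, where it was called (limma adjusted p = 0.044), and 3.19 in MIDEAS-/- (limma adjusted p = 0.037); between the wild types, DNTTIP1+/+ differed from MIDEAS+/+ by 1.73 ± 0.72 (limma adjusted p = 0.44). The DNTTIP1-/- change was also called by DESeq2 (adjusted p = 0.0034).

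The medium chain gene Nefm lies next to Nefl on the other strand (chr14:68082590-68124846, minus strand). It was at 26.7, 30.7 and 46.9 in MIDEAS+/+ and at 119, 180.2 and 299 in MIDEAS-/-. In DNTTIP1+/+ it was at 43.2 and 135 and in DNTTIP1-/- at 252 and 1080.4, the last being the highest value of any library. The groups did not overlap within either family, but DNTTIP1+/+ replicate 2 lay above MIDEAS-/- replicate 1. The log2 fold change was 2.42 ± 0.59 in MIDEAS-/- (limma adjusted p = 0.061) and 2.76 ± 0.73 in DNTTIP1-/- (limma adjusted p = 0.39). The MIDEAS-/- call was lost without MIDEAS+/+ replicate 1 (limma adjusted p = 0.15), MIDEAS+/+ replicate 2 (0.21), MIDEAS-/- replicate 2 (0.16) or MIDEAS-/- replicate 3 (0.18), while the log2 fold change stayed between 2.08 and 2.45 in these 4 fits. It was also lost against all 5 wild-type libraries, with a log2 fold change of 1.96 (limma adjusted p = 0.108). The same held where limma used neither the trend nor the robust option (adjusted p = 0.114).

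In the annotation, a long transcript of Nefm reaches across Nefl, and 1108 exon bases are shared, which is 32.8% of the exon bases of Nefl and 19.2% of those of Nefm. Whether counting used the strand is not stated by the labels or methods, so reads in the shared bases cannot be told apart. Nefh, the heavy chain gene, had 21 reads over the 10 libraries and did not exceed 6.65. Ina, which encodes the internexin chain, did not exceed 18.6, with its highest values in DNTTIP1-/- replicate 2 and MIDEAS-/- replicate 2. Neither was tested.

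Among the granins, Scg2 was the one that rose. Scg2 encodes secretogranin II, the precursor of secretoneurin (chr1:79434669-79440120, minus strand). It was at 4.46, 4.09 and 7.82 in MIDEAS+/+ and at 65.1, 36.6 and 48.5 in MIDEAS-/-. In DNTTIP1+/+ it was at 8.44 and 13.6 and in DNTTIP1-/- at 15.5 and 23.0. No groups overlapped within a family, and all 3 MIDEAS-/- libraries were above both DNTTIP1-/- libraries. The log2 fold change was 2.99 ± 0.45 in MIDEAS-/- (limma adjusted p = 0.014) and 0.76 ± 0.55 in DNTTIP1-/- (limma adjusted p = 0.89). The difference between the effects was -2.23, with a 95% confidence interval from -3.80 to -0.66 and a limma adjusted p of 0.99 over all genes, so that it was not called.

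Vgf, a granin-like precursor of several neuropeptides, had the highest wild-type mean of its group and no called change. It was at 43.5, 97.1 and 122 in MIDEAS+/+ and at 27.9, 73.1 and 30.7 in MIDEAS-/-. It was at 71.7 and 132 in DNTTIP1+/+ and at 127 and 115 in DNTTIP1-/-. The groups overlapped in both families, with log2 fold changes of -0.99 ± 0.48 (limma adjusted p = 0.34) and 0.31 ± 0.59 (limma adjusted p = 0.97). Chga and Chgb, the chromogranin genes, and Scg3, which encodes a granin that binds chromogranin A, did not exceed 12.7 in any library. Scg5, which encodes the chaperone 7B2 of the prohormone convertase PC2, reached 36.1 in DNTTIP1+/+ replicate 2 and was between 2.07 and 2.97 in MIDEAS-/-.

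The calcium sensors gave the smallest adjusted p of the list. Ncald encodes neurocalcin delta, a protein that moves to membranes when it binds calcium (chr15:37366175-37792570, minus strand). It was at 22.3, 32.7 and 44.6 in MIDEAS+/+ and at 204, 182 and 181 in MIDEAS-/-. It was at 48.5 and 93.6 in DNTTIP1+/+ and at 188 and 267 in DNTTIP1-/-. The 5 knockout libraries all lay above the 5 wild-type ones, and the 3 MIDEAS-/- values were closer together than those of any other called member. The log2 fold change was 2.53 ± 0.34 in MIDEAS-/- (limma adjusted p = 0.0087) and 1.72 ± 0.41 in DNTTIP1-/- (limma adjusted p = 0.32). The DNTTIP1-/- change was called by DESeq2 (adjusted p = 0.0095). Against all 5 wild-type libraries it was 2.35 and called (limma adjusted p = 0.061). Between the wild types, DNTTIP1+/+ differed from MIDEAS+/+ by 1.05 ± 0.37 (limma adjusted p = 0.42). The gene Gm49397 shares exon bases with Ncald on the same strand.

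Vsnl1 encodes visinin-like protein 1, a sensor of the same family (chr12:11325242-11436613, minus strand). It was at 11.1, 10.2 and 17.2 in MIDEAS+/+ and at 135, 61.2 and 50.4 in MIDEAS-/-. It was at 14.8 and 17.5 in DNTTIP1+/+ and at 60.8 and 26.2 in DNTTIP1-/-. Every knockout library was above every wild-type library. The log2 fold change was 2.49 ± 0.48 in MIDEAS-/- (limma adjusted p = 0.028) and 1.26 ± 0.59 in DNTTIP1-/- (limma adjusted p = 0.78). Without MIDEAS+/+ replicate 2 the first was 2.35 and no longer called (limma adjusted p = 0.11). Hpca, which encodes hippocalcin, the third sensor, had 2 reads in 1 library and none in the other 9; a count of 0 in a library allows up to 3 reads, for counting error only.

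**Figure D4:**
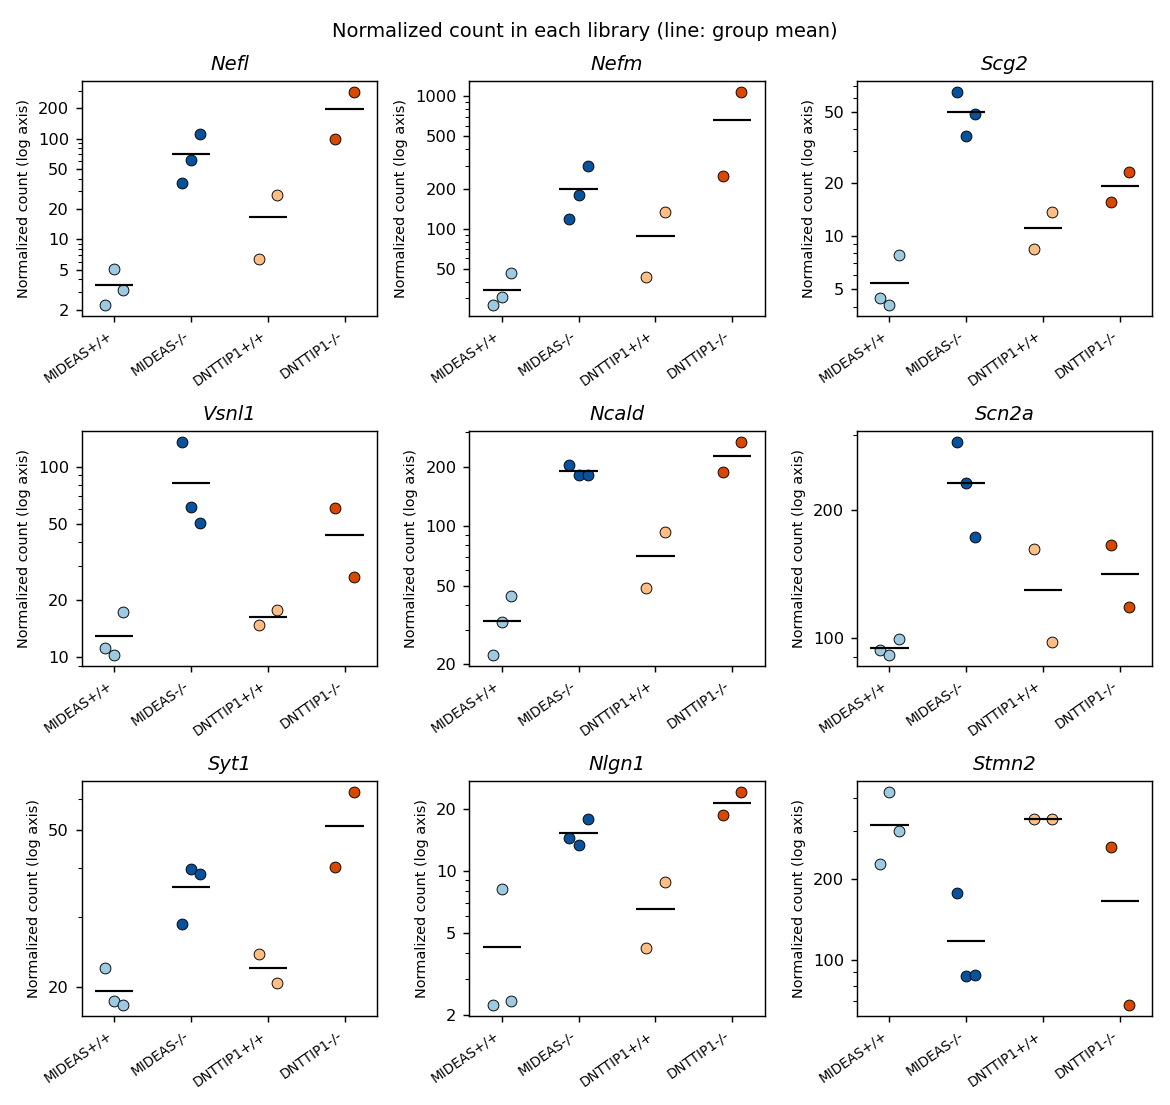
Normalized count (log axis) of 9 members in each library, by group, with a line at the group mean. Nefl, Vsnl1 and Ncald are higher in all 5 knockout libraries than in all 5 wild-type ones, Scn2a is high in the 3 MIDEAS-/- libraries, and Stmn2 is lower in the knockouts of both families.

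None of the 4 tested genes of vesicles and exocytosis was called in either knockout. Syt1 encodes synaptotagmin 1, the calcium sensor of fast vesicle release (chr10:108497650-109010982, minus strand). It was at 22.3, 18.4 and 17.99 in MIDEAS+/+ and at 28.9, 39.9 and 38.6 in MIDEAS-/-. It was at 24.3 and 20.5 in DNTTIP1+/+ and at 40.2 and 62.3 in DNTTIP1-/-. The 5 knockout libraries were above the 5 wild-type ones, with log2 fold changes of 0.83 ± 0.34 (limma adjusted p = 0.24) and 1.13 ± 0.41 (limma adjusted p = 0.64).

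Stx1a, which encodes the plasma membrane SNARE syntaxin 1A, was the most highly expressed gene of this group. It was at 381, 573 and 440.4 in MIDEAS+/+ and at 284, 418 and 342 in MIDEAS-/-. In DNTTIP1+/+ it was at 232 and 633 and in DNTTIP1-/- at 216 and 411. The replicates of 1 group differed more than the groups did, and the log2 fold changes were -0.41 ± 0.37 and -0.36 ± 0.45. Syn1 and Syn2 encode synapsins, which tether vesicles to the cytoskeleton. Syn1 ranged from 32.6 to 139 and Syn2 from 2.23 to 22.7 over the libraries, with overlapping groups. Snap25, Stx1a's SNARE partner at the synapse, had 12 reads in 4 libraries, while Syp, the vesicle protein synaptophysin, had 29 reads and Syt4 had 93.

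Of the genes of microtubules and growth cones, only Stmn2 lay below its wild types in both families without overlap. Stmn2 encodes stathmin 2 (SCG10), which destabilises microtubules in growth cones (chr3:8509360-8561606, plus strand). It was at 227, 420.0 and 301 in MIDEAS+/+ and at 178, 87.1 and 88.0 in MIDEAS-/-. It was at 333 and 332 in DNTTIP1+/+ and at 262 and 67.8 in DNTTIP1-/-. No groups overlapped within a family. The log2 fold changes were -1.46 ± 0.47 (limma adjusted p = 0.14) and -1.31 ± 0.58 (limma adjusted p = 0.75), neither called. The MIDEAS-/- value was called lower when the families were fitted apart (limma adjusted p = 0.065), against all 5 wild-type libraries (0.077), without DNTTIP1-/- replicate 1 (0.057) or replicate 2 (0.054), and by DESeq2 (adjusted p = 0.032). The DNTTIP1-/- value rested on replicate 2: it was -0.35 without that library and -2.28 without DNTTIP1-/- replicate 1.

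Tubb3, the neuronal class III beta-tubulin, was the highest of the group. It was at 723, 698 and 902 in MIDEAS+/+ and at 844, 1001 and 1272 in MIDEAS-/-. It was at 888 and 1420.3 in DNTTIP1+/+ and at 1192 and 1451 in DNTTIP1-/-. These groups overlapped in both families, and the log2 fold changes were 0.41 ± 0.21 and 0.23 ± 0.25. Gap43, a growth cone membrane protein, Map2 and Mapt, which bind microtubules in dendrites and axons, and Uchl1, a ubiquitin hydrolase abundant in neurons, had log2 fold changes between -0.38 and 0.57 over both knockouts, none called. Uchl1 was between 529 and 622 in MIDEAS-/- and between 669.8 and 886 in MIDEAS+/+, without overlap, and overlapped in the DNTTIP1 family. Dcx, the migration protein doublecortin, was at 23.4 and 19.7 in the replicate 2 libraries of the DNTTIP1 family and at 0 in both replicate 1 libraries. Stmn3 had 14 reads in all.

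No RNA-binding protein gene was called. Elavl2, the member of the Hu family that is also expressed in gonads, was at 51.3, 100.1 and 95.4 in MIDEAS+/+ and at 99.1, 99.1 and 218 in MIDEAS-/-. It was at 59.1 and 205 in DNTTIP1+/+ and at 284 and 346 in DNTTIP1-/-. The groups overlapped in the MIDEAS family and did not in the DNTTIP1 family, with log2 fold changes of 0.70 ± 0.49 and 1.50 ± 0.59 (limma adjusted p = 0.53 and 0.71).

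Celf4, a regulator of synaptic mRNAs, had the highest wild-type mean of these genes. It was at 354, 682 and 404 in MIDEAS+/+ and at 369.7, 379 and 249 in MIDEAS-/-. It was at 228 and 394 in DNTTIP1+/+ and at 315 and 410.1 in DNTTIP1-/-, so that the groups overlapped in both families. Elavl4 (HuD) and the splicing factor gene Rbfox1 were without overlap lower in MIDEAS-/-, with log2 fold changes of -1.19 ± 0.58 and -1.09 ± 0.53 (limma adjusted p = 0.35 for both), and overlapped in the DNTTIP1 family. Rbfox3, which encodes the neuronal antigen NeuN, had 2 reads, both in 1 wild-type library, and Elavl3 had 14.

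Of the channels, receptors, adhesion molecules and kinases, Scn2a rose in MIDEAS-/-. Scn2a encodes the voltage-gated sodium channel Nav1.2 of axons (chr2:65620771-65767447, plus strand). It was at 93.6, 90.9 and 99.4 in MIDEAS+/+ and at 289, 231 and 172 in MIDEAS-/-. It was at 161 and 97.5 in DNTTIP1+/+ and at 165 and 118 in DNTTIP1-/-. The MIDEAS groups did not overlap and the DNTTIP1 groups did. The log2 fold change was 1.25 ± 0.27 in MIDEAS-/- (limma adjusted p = 0.044) and 0.15 ± 0.34 in DNTTIP1-/- (limma adjusted p = 0.98), and the difference was -1.09 with a 95% confidence interval from -2.06 to -0.13, not called (limma adjusted p = 0.99). The MIDEAS-/- call was lost without MIDEAS+/+ replicate 1 (limma adjusted p = 0.104), MIDEAS+/+ replicate 2 (0.16), MIDEAS-/- replicate 1 (0.105) or MIDEAS-/- replicate 2 (0.13).

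Nlgn1 encodes neuroligin 1, a postsynaptic partner of neurexins (chr3:25426215-26332460, minus strand). It was at 2.23, 8.18 and 2.35 in MIDEAS+/+ and at 14.5, 13.3 and 17.8 in MIDEAS-/-. It was at 4.22 and 8.77 in DNTTIP1+/+ and at 18.5 and 24.1 in DNTTIP1-/-. The knockout libraries were again all above the wild-type ones, from 118 reads in all. The log2 fold changes were 1.80 ± 0.56 (limma adjusted p = 0.13) and 1.63 ± 0.69 (limma adjusted p = 0.74). The first was called where limma used neither the trend nor the robust option (adjusted p = 0.089).

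Gria3, an AMPA glutamate receptor subunit, had the highest normalized count of the list. It was at 1881, 2168 and 2158 in MIDEAS+/+ and at 2157, 2388 and 2634 in MIDEAS-/-. It was at 1589 and 1451 in DNTTIP1+/+ and at 1855 and 1897 in DNTTIP1-/-. The MIDEAS groups overlapped and the DNTTIP1 groups did not, and the log2 fold changes, 0.21 ± 0.11 and 0.30 ± 0.13, were small and not called. Its level differed more between the wild-type families, with a log2 difference of -0.44 ± 0.12 for DNTTIP1+/+ against MIDEAS+/+ (limma adjusted p = 0.40). The calcium channel gene Cacna1a, the calmodulin kinase genes Camk2a and Camk2b and the neurexin gene Nrxn2 had log2 fold changes between -0.39 and 0.60 in the 2 knockouts, none called, and the kainate receptor gene Grik2 had 51 reads.

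The libraries did not contribute evenly to these levels. Of the 27 tested members, 8 had their highest value in DNTTIP1-/- replicate 2 and 7 in MIDEAS+/+ replicate 2. Another 4 had it in DNTTIP1+/+ replicate 2 and 4 in MIDEAS-/- replicate 1. DNTTIP1-/- replicate 2, MIDEAS+/+ replicate 2 and DNTTIP1+/+ replicate 2 were picked for the largest sums over 10 skeletal muscle markers, and held 19 of these highest values. Their sums were 3409, 3952 and 3654, against 586 to 2059 in the other 7. MIDEAS-/- replicate 1, among those 7, was at 988. The sums were between 1578 and 3952 for MIDEAS+/+ and between 586 and 1355 for MIDEAS-/-, without overlap. In MIDEAS-/-, 8 genes of that list were tested, and 2 fell, beside 2.29% of all genes, while none rose. They were the actin gene Acta1 and the desmin gene Des, with log2 fold changes of -2.15 and -1.69 (limma adjusted p = 0.054 for both). The 8 values ranged from -2.15 to 1.99 with a median of 0.56, opposite in sign to the summed level. Of 10 markers of Schwann cells and crest glia, which can travel with nerve tissue, 7 were tested. In MIDEAS-/- 1 of them fell, beside 2.29% of all genes, and none rose. It was Mbp, with a log2 fold change of -1.97 (limma adjusted p = 0.064). The list summed to between 213 and 396 for MIDEAS+/+ and between 246 and 385 for MIDEAS-/-. It summed to 364 and 535 for DNTTIP1+/+ and to 306 and 315 for DNTTIP1-/-, without overlap, where the median log2 fold change of its 7 tested genes was -0.76 and none was called. Of 9 neural progenitor markers 5 were tested and none was called in either knockout; they summed to between 3240 and 7431 in MIDEAS+/+ and between 1757 and 2218 in MIDEAS-/-, without overlap. The same sum was at 2048 and 4445 in DNTTIP1+/+ and at 1928 and 4193 in DNTTIP1-/-. Nes, which encodes the intermediate filament protein nestin and is also made by muscle precursors, was most of that sum, and its log2 fold change in MIDEAS-/- was -1.33 ± 0.40 (limma adjusted p = 0.12). The 7 melanocyte markers summed to between 186 and 289.8 over the libraries, and none of the 3 tested was called. Of 12 markers of autonomic and sensory neurons, the neurotrophin receptor genes Ntrk2 and Ntrk3 rose in MIDEAS-/-, by 3.96 ± 0.41 and 1.73 ± 0.42 (limma adjusted p = 0.0040 and 0.061), and the list summed to between 329 and 430.3 for MIDEAS+/+ and between 676 and 1187 for MIDEAS-/-; none of the 5 tested genes of this list was called in DNTTIP1-/-, where the sums were 1169 and 856 against 265 and 421. The part of other cell types in the changes of the members was not tested.

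Genes of the same families and functions outside the list were read the same way. Of 49 paralogs of members, 38 were tested, and in MIDEAS-/- 6 rose and none fell, beside 5.65% of all genes. Among them were Syt13 and Syt11, both synaptotagmins, and Grik1, a kainate receptor subunit. Syt13 rose by 2.32 ± 0.36, Grik1 by 2.98 ± 0.49 and Syt11 by 0.78 ± 0.15 on the log2 scale (limma adjusted p = 0.015, 0.018 and 0.029). Grik1 was called while Grik2 was too low to test, and Syt11 and Syt13 were called while Syt1 was not; the differences between paralogs were not tested. The median log2 fold change of the paralogs was 0.06.

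Of 44 other neuronal secretory and synaptic genes, 36 were tested. In MIDEAS-/- 4 rose and none fell, beside 3.36% and 2.29% of all genes. Neither this list nor the paralogs were split by wild-type level. Nsg1, an endosomal protein of neurons, rose by 0.87 ± 0.17 and Shank1, a scaffold of the postsynaptic density, by 2.91 ± 0.61 (limma adjusted p = 0.029 and 0.036). Cntn1, a cell adhesion molecule of axons, rose by 1.94 ± 0.42 and Rab3a, a vesicle GTPase, by 0.73 ± 0.20 (limma adjusted p = 0.040 and 0.081). The median over these genes was 0.07. In DNTTIP1-/- none of the 38 paralogs and none of the 36 other neuronal genes was called by limma, with 5 and 4 of them at an unadjusted p under 0.05, beside 6.46% of all genes.

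REST was listed with 12 other genes, its partners and the splicing factor genes Ptbp1 and Ptbp2. All 13 were tested and none was called in either knockout, with 0 of them at an unadjusted limma p under 0.05. Rest was at 1638, 1687 and 1730.4 in MIDEAS+/+ and at 1323, 1913 and 2142 in MIDEAS-/-. It was at 1290 and 1362 in DNTTIP1+/+ and at 1553 and 1718 in DNTTIP1-/-. The log2 fold changes over these 13 genes lay between -0.21 and 0.34 in the 2 knockouts.

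**Figure D5:**
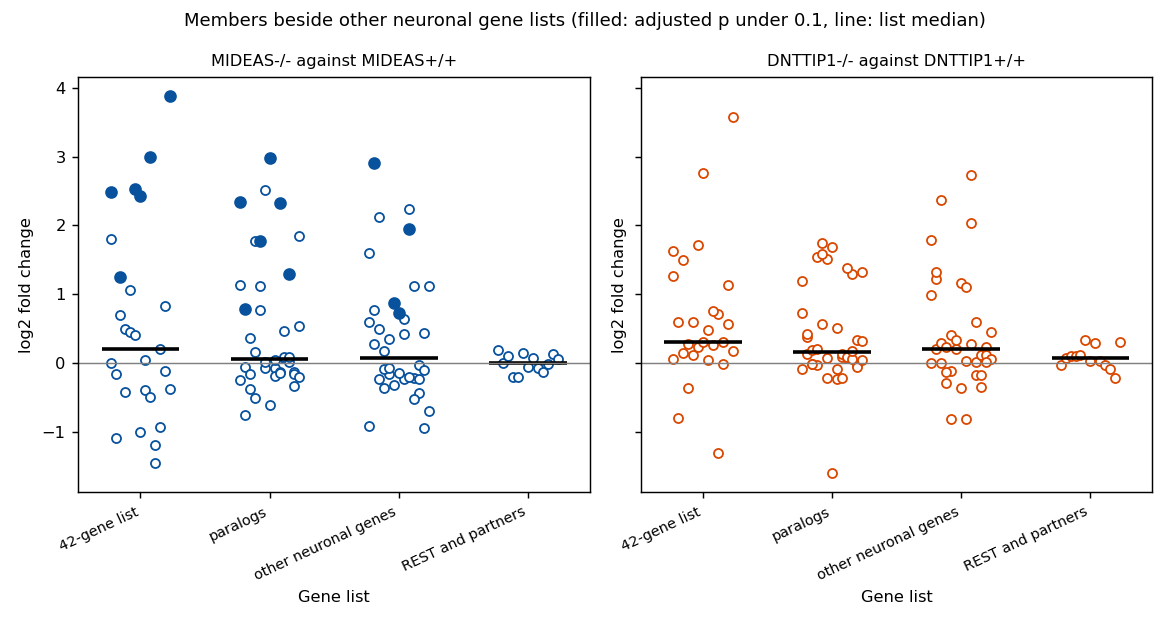
log2 fold change of each tested gene in the 42-gene list and in 3 other lists, for MIDEAS-/- (left) and DNTTIP1-/- (right); filled points passed the test and the line is the median of the list. The medians lie between 0.00 and 0.31, the called genes are all above 0, and REST and the genes listed with it lie within -0.21 and 0.34.

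The promoters are shown because 6 of the 27 tested members were called higher in MIDEAS-/-. Whether these 6 share a cause was not tested. RefSeq promoter windows (GRCm38.p6) were at hand for 27 of the 42 members, with 44 windows, and for 32851 windows in all; Scg2, Vsnl1 and Scn2a are the called members among them. In the 250 bases before the start, members had a median of 9.5 CpG dinucleotides and 54.8% G and C, against 6 and 52.4% over all windows. The RE1 sequence was searched as its 2 half-sites, CAGCACC and GGACAGC, on both strands. The first was in 5 of the 44 windows (11.4%, against 5.73% of all windows; Chgb, Nlgn1, Scg2, Syn1 and Tubb3) and the second in 3 (6.82%, against 5.28%; Hpca, Map2 and Scg2). The window of Scg2 was the only one of the 44 with both, beside 0.393% of all windows. In Scg2 the 2 half-sites followed each other with no base between them, which was seen in 1 of the 32851 windows, that of Scg2. This gap is the one that Scg2 itself has, so its count over all windows is not a test. Only half-site letters were searched and the gap was not scored, so the pair is not shown to be a full RE1. A gap of 2 bases was found in 6 windows, none of a member. A gap of 10 bases or less was found in 10 windows, with Scg2 the only member among them. The pair lies at chr1:79440027-79440040, inside an annotated exon of Scg2. It is printed on the strand of the gene (minus), where it reads as the reverse complement of the searched letters.
Scg2 half-site pair: GCTGTCCGGTGCTG

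The upstream bases of the 3 called members, and of Syt1 and Nlgn1, which were above their wild types in both families, are given next without annotated exons of the gene, with half-sites in capitals. The windows are chr1:79440121-79440276 (minus) for Scg2, chr12:11436614-11436828 (minus) for Vsnl1, chr2:65620519-65620768 (plus) for Scn2a, chr10:109010983-109011225 (minus) for Syt1 and chr3:26153987-26154236 (minus) for Nlgn1.
Scg2: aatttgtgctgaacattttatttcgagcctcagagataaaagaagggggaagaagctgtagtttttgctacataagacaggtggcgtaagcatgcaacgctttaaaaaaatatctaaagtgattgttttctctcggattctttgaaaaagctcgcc
Vsnl1: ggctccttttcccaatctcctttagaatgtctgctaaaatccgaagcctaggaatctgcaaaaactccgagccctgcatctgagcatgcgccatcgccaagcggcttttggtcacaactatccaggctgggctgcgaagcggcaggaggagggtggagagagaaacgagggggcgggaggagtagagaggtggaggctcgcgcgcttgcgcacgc
Scn2a: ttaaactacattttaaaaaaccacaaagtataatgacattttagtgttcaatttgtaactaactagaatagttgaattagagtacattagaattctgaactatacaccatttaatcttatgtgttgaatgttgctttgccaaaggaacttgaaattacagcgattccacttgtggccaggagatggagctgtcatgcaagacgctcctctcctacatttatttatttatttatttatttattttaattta
Syt1: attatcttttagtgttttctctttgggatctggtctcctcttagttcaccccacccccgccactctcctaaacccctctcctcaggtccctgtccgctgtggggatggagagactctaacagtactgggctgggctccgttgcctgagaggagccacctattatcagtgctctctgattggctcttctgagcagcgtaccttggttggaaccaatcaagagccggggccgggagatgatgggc
Nlgn1: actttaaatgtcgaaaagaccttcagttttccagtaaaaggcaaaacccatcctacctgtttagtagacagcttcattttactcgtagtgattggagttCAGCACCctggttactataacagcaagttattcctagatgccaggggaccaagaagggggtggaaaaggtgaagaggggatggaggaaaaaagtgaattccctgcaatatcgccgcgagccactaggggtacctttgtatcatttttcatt

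Vsnl1, Scn2a, Syt1 and Nlgn1 each have another window, at another start, that is not printed. The printed stretch of Vsnl1 holds 14 CpG and 58.6% G and C and its other stretch 4 and 41.6%, while the printed stretch of Scn2a holds 2 CpG and 29.6% and its other stretch 9 and 53.2%. A match of letters is not a binding site, and the absence of one says only that these letters are not in the window.

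Genes within 250 kb of the 6 called members were looked at after the calls were known. Besides the pair Nefl and Nefm themselves, 1 tested neighbour was called in MIDEAS-/-, where 5.65% of all genes tested were called. It was Kcns3, a potassium channel subunit gene 174 kb from Vsnl1, which rose by 1.95 on the log2 scale (limma adjusted p = 0.021). Kcns3 was 1 of the 4 tested neighbours of Vsnl1. Dock5, the other tested neighbour of Nefl and of Nefm, had a log2 fold change of -0.58 and was not called (limma adjusted p = 0.16). Smc6, 5.46 kb from Vsnl1, had a log2 fold change of 0.00 (limma adjusted p = 0.99). The 3 tested neighbours of Ncald, the 1 of Scg2 and the 1 of Scn2a had log2 fold changes between -0.53 and 0.10, none called.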

How the data were processed

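Per the labels and the methods, the authors trimmed reads with Trim Galore 0.4.5 and cutadapt 1.11, aligned them to mm10 with STAR 2.5.2b, used SAMtools 1.3.2 and Picard, and normalized with DESeq2; the counting program and any strand option were not given in the sources used here. Deposited values are signal: reads per gene divided by a size factor. All values (100%) were whole multiples of 1 read within 0.01 of a read, in every library. On these reads edgeR called 856 genes in MIDEAS-/- and 5 in DNTTIP1-/-, beside 917 and 5 by limma on the deposited values. Deposited sheets of the authors' own comparisons hold fold changes and p-values and were not used.

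Symbols came from a table of gene identifiers (53620 of 53801 named), positions and exon lengths from GENCODE vM21. A mean of at least 10 kept 16227 genes (30.2%), which were fitted as log2(value + 1) with limma 3.58.1 (trend, robust) in R 4.3.3, 1 fit of 10 libraries in 4 groups, with p-values adjusted by Benjamini and Hochberg over all tested genes and an adjusted p under 0.1 called. Fold changes are on this scale, which understates changes of low genes, and p-values measure only the spread between these lines. Python 3 scripts made tables, promoter counts and figures. The alternatives changed the pseudocount (0.5 or 5), the filter (1, 50 or none) and the scaling (TMM or totals), or used separate fits, all 5 wild types as controls, a replicate block, a threshold of 0.05, no trend, edgeR 4.0.16 and DESeq2 1.42.0 on the recovered reads, and each library left out. Where no trend is named, the robust option was off as well. The main fit was tested on simulated data.

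The 42 members, their roles and all other lists were chosen with earlier results of these data known. Values in every library are given for called members, the member with the highest wild-type mean in each of the 7 role groups, the 5 largest changes per knockout, and members whose groups did not overlap in both families; the rest are given by ranges and counts. For the other lists, up to 4 called genes of smallest p are named per list, apart from 1 item that is not reported here.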

Additional observations from a re-analysis of the deposited data

How the results depend on the processing

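With 2 or 3 lines per group, changes of low genes had wide intervals. The count of 6 called members in MIDEAS-/- was between 4 and 7 under pseudocounts of 0.5 and 5, filters of 1, 50 or none, both scalings, separate fits, all 5 wild-type controls, no trend, a threshold of 0.05, edgeR and DESeq2, with 1 of the called members lower (Stmn2) under separate fits, all 5 wild types and DESeq2; the filter of 50 left 19 members to test and 4 called. Leaving out 1 library gave 3 to 7 (7 with Stmn2 lower, without either DNTTIP1-/- library), with 3 (Nefl, Ncald and Scg2) without MIDEAS+/+ replicate 2. Nefl, Ncald and, where tested, Scg2 were called in every one of these. In DNTTIP1-/-, where the count was 0, 3 members (Nefl, Nefm and Ncald) were called against all 5 wild-type controls and 3 by DESeq2, and leaving out a library gave 0 each time; where 1 library of a group was left, it was assumed to vary like the others. In the comparison of wild types DESeq2 called 1 member. The replicate numbers were not taken to pair the samples (correlations of same-numbered deviations of 0.21, -0.11 and -0.05 in the MIDEAS family; 0.66 in the DNTTIP1 family, from 2 numbers that share 1 value). A fit with the replicate block called 10 members in MIDEAS-/-, 7 higher and 3 lower (Elavl4, Stmn2 and Syn1), 2 higher in DNTTIP1-/- (Nefl and Nefm, limma adjusted p = 0.054 and 0.057), 0 for the difference and 0 between wild types. Over all genes, calls in MIDEAS-/- and DNTTIP1-/- went from 917 and 5 to 1674 and 206 by DESeq2 and to 2127 and 94 with the block. Among members given in full, signs turned only for changes in DNTTIP1-/- that were not called. Celf4 (0.26) turned to -0.11 against all 5 wild types, and leaving out a library gave -0.13 to 0.66 for Celf4, -0.12 to 0.74 for Vgf, -0.11 to 0.57 for Tubb3, -1.08 to 0.36 for Stx1a and -0.21 to 0.51 for Scn2a. The causes were not tested.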
